A study of Mus musculus with 12 samples.

Results

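The ATP-binding cassette (ABC) genes described here are the 46 of 17742 measured mouse genes whose platform symbol is Abc followed by a letter from a to g and a digit. Every gene with such a name was taken, whatever its level or response, but the family was chosen with earlier results of these data known. Each gene stands for its brightest probe over the 12 arrays, which was the only probe for 41 of them, while 5 had several. The 46 genes lie on 17 chromosomes and fall by known role into exporters of the bile canaliculus (5), transporters of sterols and other lipids (12), exporters of drugs and conjugates (9), mitochondrial (3) and peroxisomal or lysosomal transporters (4), proteins without a membrane domain (4) and 9 others.

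The study compared mouse livers of 3 groups. STZ+MENS livers came from mice made diabetic with streptozotocin (STZ), a toxin of the insulin-producing beta cells, and then given MENS. STZ livers came from diabetic mice without MENS, and control livers from untreated mice. The labels leave MENS unexplained. They name a circuit board run from a MENS device, applied 1 h daily, 5 times weekly, for 6 weeks. All mice are labelled as 8 weeks old. Strain, sex and STZ dose are not stated, nor that a liver sample is 1 animal. Each group had 2 liver samples, numbered 1 and 2 (n = 2 throughout), with 2 arrays of a single-colour oligonucleotide platform per sample.

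ABC proteins use ATP to move their cargo across a membrane. In the hepatocyte, ABC proteins of the canalicular membrane load bile with bile salts, phospholipid, cholesterol and conjugated drugs, while others on the blood side return conjugates and bile salts to the circulation. Further members send cholesterol to lipoproteins, serve mitochondria, peroxisomes and lysosomes, or have no membrane domain and act on ribosomes.

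Levels are given as log2(intensity + 50) of the deposited, already normalized intensities, averaged over the 2 arrays of a sample. Differences are on the same log2 scale, with the standard error (SE) of 1 limma fit to all 6 samples and p corrected across the 17742 genes (Benjamini-Hochberg). Arrays carry no read depth, and their number limits the precision. The 2 arrays of a sample differed by a median of 0.115 over the 46 genes and 6 samples, and by more than 1 in 1 of 276 cases. The spread between samples of a group had a median SD of 0.19 over the ABC genes and 0.17 over all genes. The tissue label was checked on hepatocyte markers, of which 6 of 8 were measured, at mean intensities between 92719 and 504831.

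No ABC gene passed an adjusted p of 0.05 in any of the 3 comparisons in limma. Of all genes tested, 0.00564% passed for STZ against control, 0% for STZ+MENS against STZ and 0.00564% for STZ+MENS against control. The differences described below are therefore measured differences that did not pass over all genes. At an unadjusted p under 0.05, 12 ABC genes differed between STZ and control, a share of 26.1% against 17% of all genes. Of these 6 were higher and 6 lower, where 8.48% of all genes were higher and 8.49% lower. Between STZ+MENS and STZ, 12 differed, a share of 26.1% against 25.4% of all genes. Again 6 were higher and 6 lower, where 12.6% and 12.8% of all genes were. Between STZ+MENS and control, 13 differed, a share of 28.3% against 18% of all genes, with 6 higher and 7 lower, where 8.82% and 9.18% of all genes were. Without STZ sample 1 the first of these counts was 7, where 11% of all genes stood at that threshold, and without control sample 1 the third was 7, where the share of all genes was 10.2%.

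Over the 46 ABC genes, 22 differences were above 0 and 24 below for STZ against control, 20 and 26 for STZ+MENS against STZ, and 21 and 25 for STZ+MENS against control. Over all genes the counts above and below were 8439 and 9303, 10012 and 7730, and 9406 and 8336, in the same order. The median difference of the ABC genes was -0.01 for STZ against control, where the median of all genes was -0.02. It was -0.07 for STZ+MENS against STZ, beside 0.06 for all genes, and -0.03 for STZ+MENS against control, beside 0.02. For 28 ABC genes no STZ sample fell within the control range or the reverse (16 higher, 12 lower), a share of 60.9% against 52.1% of all genes (24% higher, 28.2% lower). For STZ+MENS against STZ this held for 27 genes (14 higher, 13 lower), or 58.7% against 57.9% of all genes (34% higher, 23.9% lower). For STZ+MENS against control it held for 29 (15 higher, 14 lower), or 63% against 48.6% of all genes (25.6% higher, 23% lower). The comparisons share samples, so their counts are not independent of each other.

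**Figure D1:**
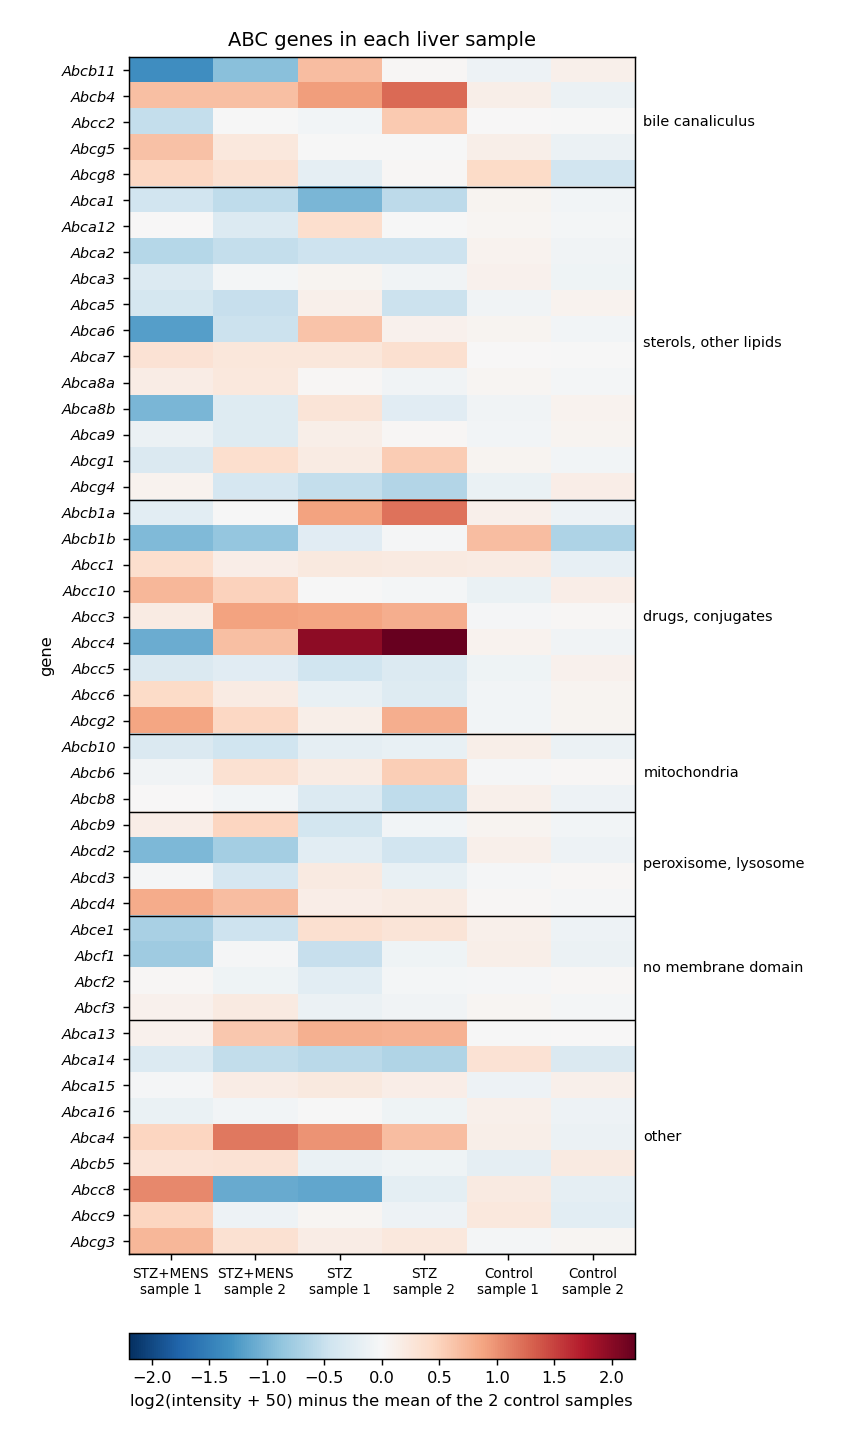
The 46 ABC genes (rows, by role) in the 6 liver samples (columns), coloured by log2(intensity + 50) minus the mean of the 2 control samples. Abcc4 in both STZ samples is the darkest red, at 1.97 and 2.21 above the control mean, and Abcb11 is blue in both STZ+MENS samples.

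The bile canaliculus showed its clearest values in Abcb11 and Abcb4, which differed from each other in pattern. Abcb11 is the bile salt export pump, which drives bile salt secretion. Its level was 13.21 and 13.65 in STZ+MENS livers, 15.27 and 14.61 in STZ livers and 14.47 and 14.70 in control livers. Both STZ+MENS samples lay below all 4 other samples, while STZ and control overlapped. In STZ+MENS it was 2.84-fold lower than in STZ (-1.51 ± 0.27 SE, adjusted p = 0.0595) and 2.22-fold lower than in control (-1.15 ± 0.27, adjusted p = 0.132). STZ differed from control by 0.36 ± 0.27 (adjusted p = 0.547). The 2 arrays of STZ+MENS sample 2 stood apart, at 13.13 and 14.18, both below the lowest array of the other groups at 14.37. Without STZ+MENS sample 2 the difference of Abcb11 from STZ was -1.73. It was -1.84 without STZ sample 2 and -1.18 without STZ sample 1.

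Abcb4 is the flippase that delivers phosphatidylcholine to bile. It stood at 17.27 in both STZ+MENS samples, at 17.52 and 17.86 in STZ and at 16.74 and 16.48 in control. The 3 groups did not overlap, with STZ highest and control lowest. STZ was 2.12-fold higher than control (1.08 ± 0.18, adjusted p = 0.101), STZ+MENS 1.58-fold higher than control (0.66 ± 0.18, adjusted p = 0.152), and STZ+MENS differed from STZ by -0.42 ± 0.18 (adjusted p = 0.205). Its probe ranked between 93 and 400 of 26423 on the 12 arrays, in the part of the scale where the deposited normalization leaves few values. In whole tissue, fewer cells of a type and less RNA per cell cannot be told apart. Hepatocyte markers, as a summed intensity of 6 genes, lay between 1825380 and 1958450 in STZ+MENS, 1904400 and 1959490 in STZ, and 2176470 and 2194280 in control. The list was split between STZ+MENS and STZ, with 3 genes higher and 3 lower: Apoa1 differed by 0.28, Fgb by 0.26 and Ttr by 0.17, but Alb by -0.13, Cps1 by -1.27 and Apob by -2.12. The part of these markers in the differences was not tested.

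The start regions of both genes are shown because they gave the opposite order of STZ+MENS against control. Each is the RefSeq window of 250 bases before to 50 after the annotated start in GRCm38.p6, for Abcb11 chr2:69342567-69342866 on the minus strand and for Abcb4 chr5:8893471-8893770 on the plus strand. Capitals mark every match to 1 of the 7 motifs listed further on.
Abcb11: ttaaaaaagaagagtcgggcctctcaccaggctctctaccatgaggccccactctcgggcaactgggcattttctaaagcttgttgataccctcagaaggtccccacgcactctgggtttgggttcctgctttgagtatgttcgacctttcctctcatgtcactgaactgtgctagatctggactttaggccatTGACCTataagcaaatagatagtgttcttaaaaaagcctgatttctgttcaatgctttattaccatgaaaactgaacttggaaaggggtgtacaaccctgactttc
Abcb4: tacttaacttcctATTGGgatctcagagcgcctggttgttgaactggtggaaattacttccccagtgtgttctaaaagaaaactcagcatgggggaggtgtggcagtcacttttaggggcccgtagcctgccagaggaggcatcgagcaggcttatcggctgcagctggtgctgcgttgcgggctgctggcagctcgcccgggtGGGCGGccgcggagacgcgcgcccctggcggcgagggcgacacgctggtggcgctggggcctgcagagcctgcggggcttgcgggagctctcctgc
The Abcb11 window held 1 match, a nuclear receptor core AGGTCA on the reverse strand at position -56 from the start. The Abcb4 window held a reversed CCAAT at -237 and a GGGCGG at -46. Its GC content was 64%, against 45.3% for Abcb11.

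Abcc2, Abcg5 and Abcg8 gave smaller differences. Abcc2 exports glucuronide and glutathione conjugates, bilirubin among them. Its level was 13.50 and 14.00 in STZ+MENS, 13.96 and 14.59 in STZ, and 14.03 and 14.01 in control. STZ+MENS minus STZ was -0.53 ± 0.26 (adjusted p = 0.267), with overlapping samples.

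Abcg5 and Abcg8 are partners that together secrete cholesterol and plant sterols into bile. Abcg5 had 16.19 and 15.78 in STZ+MENS, 15.54 and 15.55 in STZ, and 15.69 and 15.41 in control. Abcg8 had 14.28 and 14.16 in STZ+MENS, 13.63 and 13.85 in STZ, and 14.24 and 13.41 in control. For both genes the STZ+MENS samples lay above the STZ samples, by 0.44 ± 0.19 for Abcg5 and 0.48 ± 0.28 for Abcg8 (adjusted p = 0.215 and 0.33). Neither was apart between STZ and control, at -0.01 ± 0.19 and -0.08 ± 0.28, and for Abcg8 the 2 control samples spanned the values of both STZ samples. The genes are neighbours on chromosome 17, read in opposite directions. The Abcg5 window (GRCm38.p6 chr17:84682962-84683261, minus strand) shared 209 bases with a window of Abcg8, and the annotated starts lay 110 bases apart, so the sequence is shown as the start region of both.
Abcg5: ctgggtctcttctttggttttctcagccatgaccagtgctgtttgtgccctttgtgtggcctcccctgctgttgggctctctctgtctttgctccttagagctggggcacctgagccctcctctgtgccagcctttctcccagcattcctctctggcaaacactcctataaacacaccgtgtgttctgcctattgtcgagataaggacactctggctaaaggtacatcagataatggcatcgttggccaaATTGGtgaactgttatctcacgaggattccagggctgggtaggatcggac
It held 1 of the motifs, a reversed CCAAT at the Abcg5 start.

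**Figure D2:**
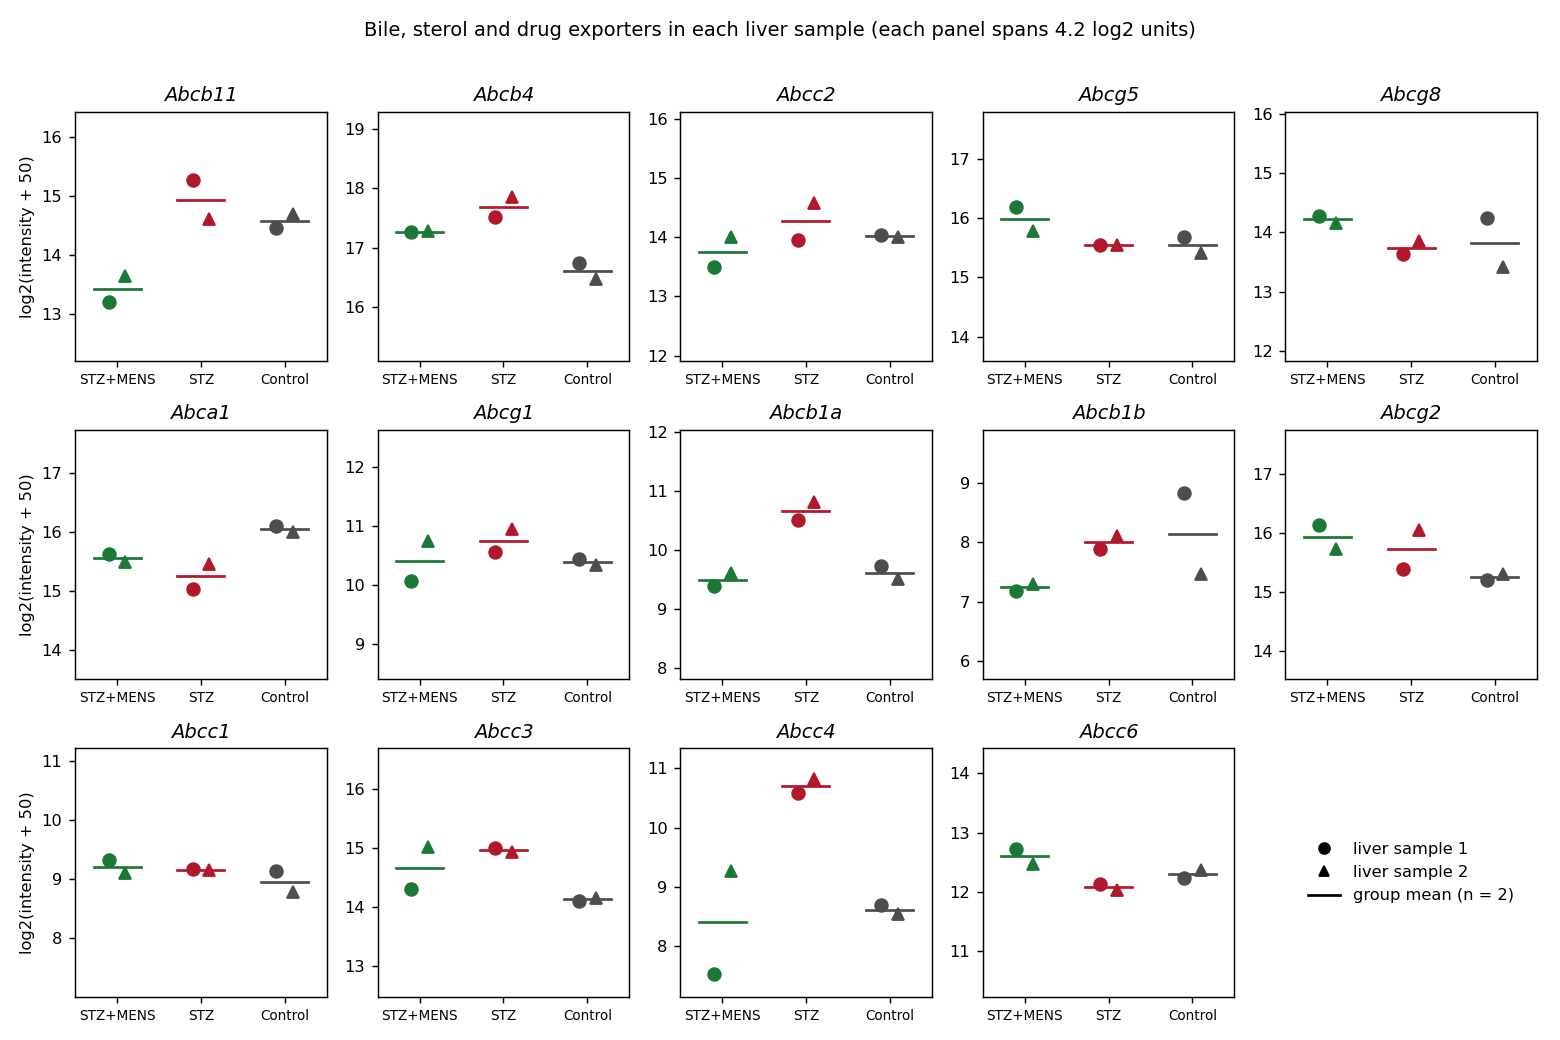
The log2(intensity + 50) of 14 exporters in each liver sample, by group, with the group mean as a line and every panel spanning 4.2 log2 units. Abcb11 was lowest in STZ+MENS, Abcb4 and Abcc3 were lowest in control, and Abcb1a and Abcc4 were highest in STZ.

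Among transporters of sterols and other lipids, 3 of 12 had an unadjusted p under 0.05 for STZ against control, all lower, where 8.49% of all genes were lower. Abca1 loads cellular cholesterol and phospholipid onto apolipoprotein A-I and so starts the formation of HDL. It stood at 15.62 and 15.49 in STZ+MENS, 15.03 and 15.46 in STZ, and 16.10 and 15.99 in control. All 4 samples of the STZ+MENS and STZ groups lay below both controls. STZ was 1.73-fold lower than control (-0.79 ± 0.18, adjusted p = 0.145) and STZ+MENS 1.40-fold lower (-0.49 ± 0.18, adjusted p = 0.248), and STZ+MENS minus STZ was 0.31 ± 0.18.

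Abca2, a lipid transporter of endosomes and lysosomes, was at 11.41 and 11.52 in STZ+MENS, 11.59 and 11.59 in STZ, and 12.11 and 11.97 in control. It too was lower than control in both groups, by -0.45 ± 0.14 in STZ and -0.57 ± 0.14 in STZ+MENS (adjusted p = 0.199 and 0.134). Abcg4, a sterol exporter known mainly from brain, had 14.60 and 14.15 in STZ+MENS, 13.98 and 13.87 in STZ, and 14.37 and 14.66 in control. For Abcg4, STZ minus control was -0.59 ± 0.20 (adjusted p = 0.23). Its only probe had a mean intensity of 20206, and probe specificity was not tested. Abcg1, which moves cellular cholesterol towards HDL, had 10.07 and 10.75 in STZ+MENS, 10.56 and 10.95 in STZ, and 10.44 and 10.33 in control. Both STZ samples lay above both controls, and STZ+MENS overlapped each of the other groups. STZ minus control was 0.36 ± 0.26 for the probe used and -0.24 for its other probe. Abca7, a phospholipid transporter, was higher than control by 0.30 ± 0.13 in STZ and by 0.28 ± 0.13 in STZ+MENS, without overlap of samples in either comparison. The arrays of STZ+MENS sample 2 read 11.275 and 10.689, and with only the second arrays STZ+MENS minus control was 0.08. Abca3, the lipid transporter of lung surfactant, stayed close in all groups, with STZ+MENS minus control at -0.17 ± 0.16.

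Of these 12, 1 gene (8.33%) had an unadjusted p under 0.05 between STZ+MENS and STZ, against 25.4% of all genes. It was Abca6, a lipid-transporter relative, with 11.55 and 12.30 in STZ+MENS, 13.40 and 12.86 in STZ, and 12.82 and 12.71 in control. The difference was -1.20 ± 0.29 (adjusted p = 0.0838), and -1.58 without STZ+MENS sample 2. A second probe of Abca6, at a mean intensity of 3673, gave -0.20 for the same comparison, and a further one, at 69.6, gave 0.11. With all probes averaged the difference was -0.43.

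Abca6 belongs to a run of 5 neighbouring genes on chromosome 11, Abca8b, Abca8a, Abca9, Abca6 and Abca5. Between STZ+MENS and STZ the neighbours differed by -0.66 ± 0.29 for Abca8b, 0.22 ± 0.14 for Abca8a, -0.28 ± 0.14 for Abca9 and -0.26 ± 0.21 for Abca5. Abca8b had 8.26 and 8.97 in STZ+MENS, 9.55 and 9.01 in STZ, and 9.19 and 9.33 in control, and leaving out STZ+MENS sample 1 moved its difference from STZ to -0.30, and leaving out sample 2 moved it to -1.02. Samples did not overlap for any of these but Abca5, where 57.9% of all genes did not overlap either. Abca8a ran opposite to the rest. Abca8a and Abca8b are close copies, and how far their probes keep them apart was not tested.

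Exporters of drugs and conjugates held the largest difference of any ABC gene. Abcc4 exports bile salts, cyclic nucleotides and conjugates from the blood side of the hepatocyte. Its level was 7.53 and 9.27 in STZ+MENS, 10.58 and 10.82 in STZ, and 8.68 and 8.55 in control. Both STZ samples lay above all others, and the STZ+MENS samples lay on either side of the controls. STZ was 4.25-fold higher than control (2.09 ± 0.52, adjusted p = 0.156), and STZ+MENS was 4.94-fold lower than STZ (-2.30 ± 0.52, adjusted p = 0.0751). STZ+MENS minus control was -0.21 ± 0.52, and -1.09 without STZ+MENS sample 2 but 0.66 without STZ+MENS sample 1.

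The distance between the 2 STZ+MENS samples sets the error of Abcc4. When only STZ and control were fitted, STZ minus control was 2.09 ± 0.16 and passed over all genes (adjusted p = 0.014), as 1.02% of all genes did, and it was the only ABC gene to do so. Leaving out either STZ+MENS sample gives this same fit by construction, since a group of 1 sample adds nothing to the spread. Against STZ, the difference was -3.18 ± 0.19 without STZ+MENS sample 2 (adjusted p = 0.0166, where 9.91% of all genes passed) and -1.43 without STZ+MENS sample 1. The arrays of STZ+MENS sample 1 read 7.35 and 7.70 and those of sample 2 read 9.42 and 9.13, so the arrays of each sample lay closer together than the samples.

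Abcb1a, a multidrug exporter (P-glycoprotein), followed the same order. It stood at 9.39 and 9.61 in STZ+MENS, 10.50 and 10.81 in STZ, and 9.72 and 9.50 in control. STZ was 2.06-fold higher than control (1.04 ± 0.18, adjusted p = 0.11) and STZ+MENS 2.23-fold lower than STZ (-1.15 ± 0.18, adjusted p = 0.0595), while STZ+MENS overlapped control (-0.11 ± 0.18). Without STZ+MENS sample 2 the difference of Abcb1a from STZ was -1.27. The lowest STZ sample thus exceeded every other sample for both Abcb1a and Abcc4, which is why their start regions are set side by side, Abcb1a at GRCm38.p6 chr5:8566841-8567140 on the plus strand and Abcc4 at chr14:118706170-118706469 on the minus strand.
Abcb1a: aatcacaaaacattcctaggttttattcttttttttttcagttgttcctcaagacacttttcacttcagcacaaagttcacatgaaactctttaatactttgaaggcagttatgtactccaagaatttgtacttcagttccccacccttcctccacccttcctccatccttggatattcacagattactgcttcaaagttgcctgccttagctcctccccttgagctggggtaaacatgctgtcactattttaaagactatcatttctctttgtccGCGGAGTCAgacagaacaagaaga
Abcc4: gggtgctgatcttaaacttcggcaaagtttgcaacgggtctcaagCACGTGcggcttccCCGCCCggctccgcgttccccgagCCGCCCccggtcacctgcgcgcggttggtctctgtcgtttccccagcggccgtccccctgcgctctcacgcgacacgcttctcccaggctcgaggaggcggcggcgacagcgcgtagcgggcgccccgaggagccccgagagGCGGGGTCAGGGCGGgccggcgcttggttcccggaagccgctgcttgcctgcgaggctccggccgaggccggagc
Both windows held a match to TGACNNNGC on the reverse strand, at position 27 in Abcb1a and at -25 in Abcc4. This motif was in 12.4% of the 27025 promoter windows searched. The Abcc4 window also held CACGTG at -205 and 3 matches to GGGCGG, at -191, -167 and -16. Their GC contents were 40.3% for Abcb1a and 72.7% for Abcc4.

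Abcb1a, Abcb1b and Abcb4 are neighbours on chromosome 5. Abcb1b, the second rodent P-glycoprotein gene, had 7.18 and 7.30 in STZ+MENS, 7.89 and 8.11 in STZ, and 8.83 and 7.46 in control. Its control samples lay far apart and spanned the STZ samples, so no order of STZ and control can be read (-0.14 ± 0.42). The STZ+MENS samples were below all others (-0.76 ± 0.42 against STZ, adjusted p = 0.304). STZ was thus above control without overlap in Abcb4 and Abcb1a and not in the gene between them. Abcb1a and Abcb1b are close copies, and probe specificity was not tested.

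Abcc3 sends glucuronides and bile salts back to blood. Its level was 14.31 and 15.01 in STZ+MENS, 14.99 and 14.92 in STZ, and 14.11 and 14.15 in control. STZ was 1.77-fold higher than control (0.83 ± 0.24, adjusted p = 0.184). As a mean of its arrays, STZ+MENS sample 2 was at the level of the STZ samples and sample 1 near the controls. The arrays of sample 2 differed, at 14.62 and 15.40, as did those of sample 1, at 14.53 and 14.09. STZ+MENS minus control was 0.88 without sample 1 and 0.18 without sample 2. Abcg2, an exporter of sulfates, urate and drugs, had 16.13 and 15.72 in STZ+MENS, 15.39 and 16.05 in STZ, and 15.20 and 15.31 in control. Both groups lay above control, by 0.67 ± 0.26 in STZ+MENS and 0.46 ± 0.26 in STZ (adjusted p = 0.254 and 0.424).

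A further pair of the C class was higher in STZ+MENS than in STZ. Abcc10, a broad exporter of conjugates, had 13.65 and 13.44 in STZ+MENS, 12.91 and 12.88 in STZ, and 12.78 and 13.06 in control, and exceeded STZ by 0.65 ± 0.16 and control by 0.62 ± 0.16 (adjusted p = 0.0886 and 0.15). Abcc6, which releases ATP from hepatocytes and so restrains calcification elsewhere in the body, had 12.72 and 12.47 in STZ+MENS, 12.13 and 12.02 in STZ, and 12.23 and 12.36 in control. It exceeded STZ by 0.52 ± 0.15 (adjusted p = 0.116).

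Abcc5, an exporter of nucleotides and conjugates, was lower than control in STZ (-0.37 ± 0.14, adjusted p = 0.271). Abcc1, an exporter of glutathione conjugates, had 9.33 and 9.10 in STZ+MENS, 9.18 and 9.15 in STZ, and 9.14 and 8.78 in control, with STZ+MENS minus control at 0.26 ± 0.17. Of the 9 drug and conjugate exporters, 3 were higher and 1 lower for STZ against control at an unadjusted p under 0.05, 2 higher and 2 lower for STZ+MENS against STZ, and 2 higher and 0 lower for STZ+MENS against control. The shares of all genes higher and lower were 8.48% and 8.49%, 12.6% and 12.8%, and 8.82% and 9.18% in these comparisons.

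**Figure D3:**
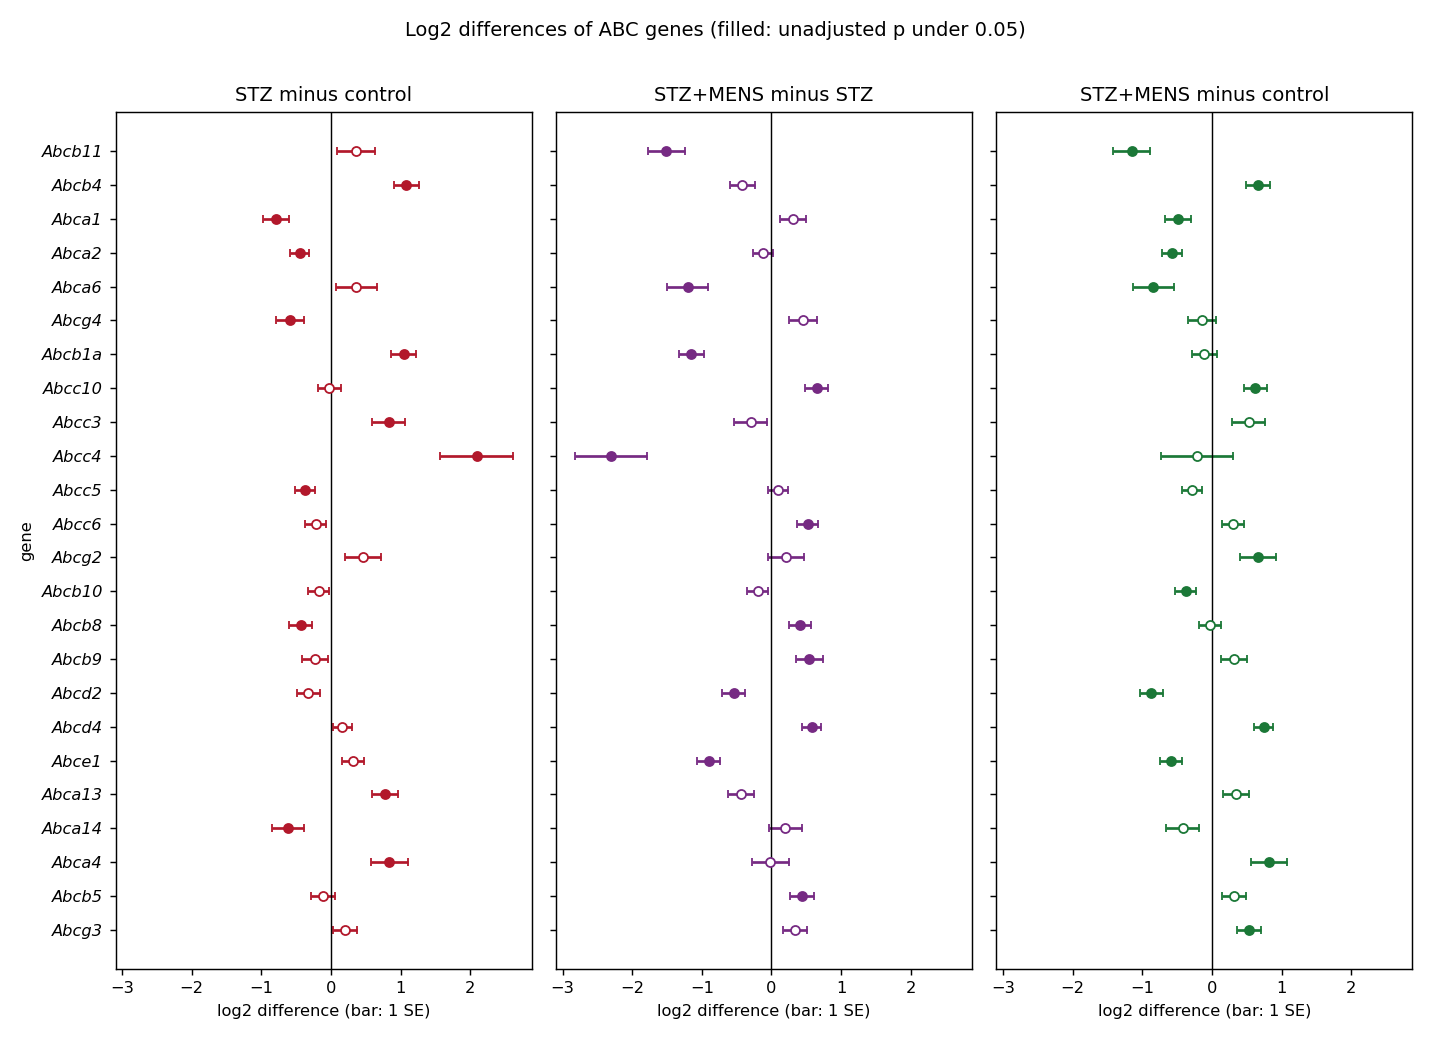
Log2 differences with 1 SE for the 24 ABC genes that had an unadjusted p under 0.05 in at least 1 comparison, with filled points where that comparison had it. Abcc4 and Abcb1a lie right of 0 for STZ minus control and left of 0 for STZ+MENS minus STZ, and these comparisons share the STZ samples.

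The organelle transporters gave differences below 1 on the log2 scale. Abcd4, which brings cobalamin out of lysosomes, had 13.18 and 13.04 in STZ+MENS, 12.51 and 12.54 in STZ, and 12.38 and 12.34 in control. Both STZ+MENS samples were highest, by 0.58 ± 0.14 over STZ (adjusted p = 0.0787) and 0.74 ± 0.14 over control (adjusted p = 0.115). The arrays of STZ+MENS sample 2 were at 12.55 and 13.52. Abcd2, a peroxisomal importer of very long chain fatty acids, had 7.30 and 7.53 in STZ+MENS, 8.05 and 7.87 in STZ, and 8.39 and 8.18 in control. The groups did not overlap, and STZ+MENS was 1.83-fold lower than control (-0.87 ± 0.16, adjusted p = 0.122). Its probe was dim, with a mean intensity of 195, and the difference was -1.03 with an offset of 16 and -0.52 with an offset of 200.

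Abcd3, the peroxisomal importer of branched fatty acids and bile acid precursors, had 17.50 and 17.14 in STZ+MENS, 17.73 and 17.36 in STZ, and 17.50 and 17.54 in control, and STZ+MENS minus STZ was -0.22 ± 0.19. Its probe ranked between 110 and 271 of 26423, near the top of the scale. Abcb9, a lysosomal peptide transporter, was higher in STZ+MENS than in STZ (0.54 ± 0.19, adjusted p = 0.151).

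Of the 3 mitochondrial genes, Abcb8, which acts in mitochondrial iron and potassium handling, had 11.99 and 11.92 in STZ+MENS, 11.67 and 11.41 in STZ, and 12.08 and 11.87 in control. STZ lay below both other groups, by -0.44 ± 0.16 against control, and STZ+MENS minus STZ was 0.41 ± 0.16 (adjusted p = 0.255 and 0.182). Abcb10, needed for heme synthesis, had 12.68 and 12.56 in STZ+MENS, 12.80 and 12.83 in STZ, and 13.13 and 12.87 in control, and was lower in STZ+MENS than in control (-0.38 ± 0.15, adjusted p = 0.272). Markers of red cells and their precursors, of which 2 of 5 were measured, had a summed intensity of 9330 and 104836 in STZ+MENS, 32621 to 55363 in STZ and 79641 to 95699 in control. Their part in the values of Abcb10 was not tested. Abcb6, a porphyrin transporter, differed by 0.36 ± 0.20 between STZ and control.

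Abce1 recycles ribosomes after translation and carries no transport function. The probe used read 12.66 and 12.93 in STZ+MENS, 13.73 and 13.67 in STZ, and 13.50 and 13.27 in control. STZ+MENS was lowest without overlap, by -0.90 ± 0.16 against STZ (adjusted p = 0.0595) and -0.59 ± 0.16 against control (adjusted p = 0.158). Without STZ+MENS sample 2 the difference from STZ was -1.03. The other Abce1 probe, with a mean intensity of 3809, ran the opposite way. It read 12.37 and 11.99 in STZ+MENS, 11.55 and 11.55 in STZ, and 11.81 and 12.02 in control, so that STZ+MENS minus STZ was 0.63. Averaging both probes left -0.14, and no direction is given for the gene. Of its relatives that act in translation, Abcf1, Abcf2 and Abcf3, none had an unadjusted p under 0.05, the widest difference being -0.40 ± 0.29 for Abcf1 in STZ+MENS minus control.

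**Figure D4:**
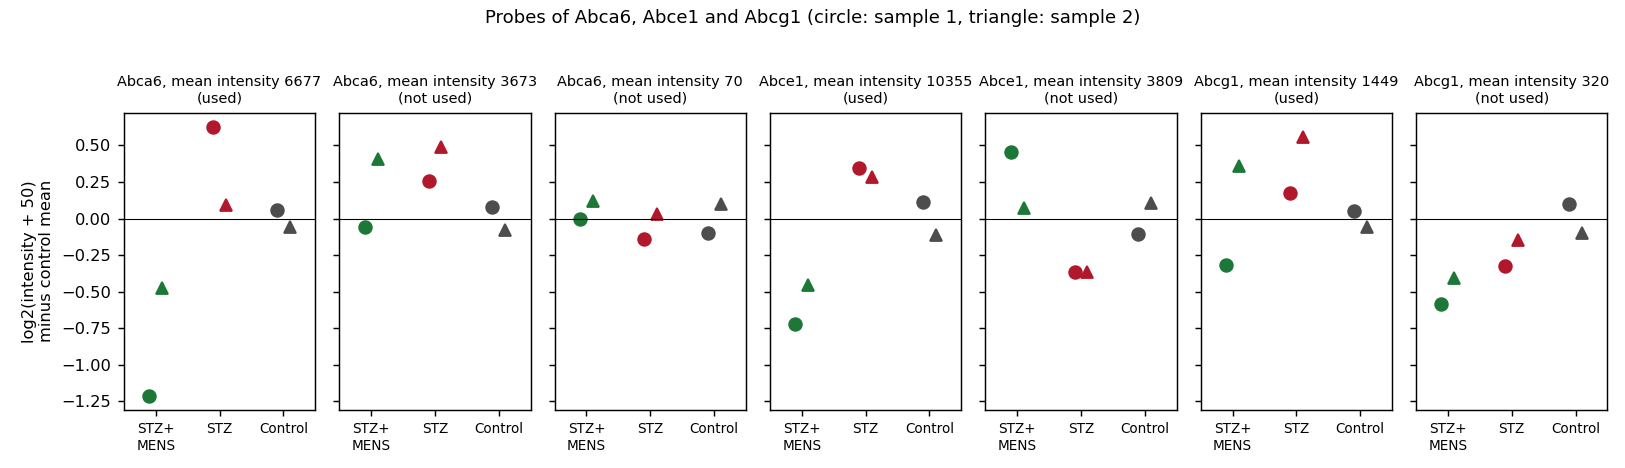
Each probe of Abca6, Abce1 and Abcg1 in every liver sample, as log2(intensity + 50) minus the mean of the 2 control samples, with the probe used for the gene named above its panel. The 2 Abce1 probes place STZ+MENS and STZ in opposite order, at -0.90 and 0.63 for STZ+MENS minus STZ.

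The other 9 genes are known mainly from other tissues, and several were dim. Abca4, the retinoid transporter of photoreceptors, had 8.74 and 9.44 in STZ+MENS, 9.27 and 8.95 in STZ, and 8.40 and 8.14 in control. Both groups lay above control, by 0.82 ± 0.26 in STZ+MENS and 0.84 ± 0.26 in STZ (adjusted p = 0.195 and 0.205). Abca13 had 6.82 and 7.30 in STZ+MENS, 7.51 and 7.48 in STZ, and 6.71 and 6.73 in control, with STZ minus control at 0.78 ± 0.19 (adjusted p = 0.154). Its mean intensity was 91.5, and Abca12 and Abca16 were also under 100, so the offset weighs on their differences.

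Abcc8 and Abcc9 encode the sulfonylurea receptors of ATP-sensitive potassium channels, Abcc8 that of the beta cell. Abcc8 varied most within groups, with 13.01 and 10.83 in STZ+MENS, 10.80 and 11.72 in STZ, and 12.15 and 11.74 in control. Abcc9 had 12.90 and 12.32 in STZ+MENS, 12.48 and 12.32 in STZ, and 12.66 and 12.20 in control, and overlapped throughout. Abcb5 was higher in STZ+MENS than in STZ (0.43 ± 0.17) by the probe used and not by a dim second probe (-0.06). Abcg3, a rodent relative of Abcg2, was higher in STZ+MENS than in control (0.53 ± 0.17, adjusted p = 0.202). Abca14, Abca15 and Abca16 are neighbours on chromosome 7. Among them Abca14 had 8.13 and 7.88 in STZ+MENS, 7.84 and 7.77 in STZ, and 8.74 and 8.11 in control. STZ minus control was -0.62 ± 0.23 (adjusted p = 0.259), and -0.31 without control sample 1 or -0.94 without control sample 2, beside 0.19 ± 0.15 for Abca15 and -0.06 ± 0.15 for Abca16.

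Genes that make, take up and sense bile acids were read beside the exporters. Of 12 bile acid synthesis genes 6 were measured, and 0 passed over all genes. Between STZ+MENS and STZ, 4 of the 6 were lower and 0 higher at an unadjusted p under 0.05, where 12.8% of all genes were lower, and the median difference was -0.58. Akr1d1, a reductase of the sterol ring, had 11.65 and 12.44 in STZ+MENS, 13.88 and 13.22 in STZ, and 13.07 and 12.78 in control (-1.50 ± 0.33 for STZ+MENS minus STZ, adjusted p = 0.0729). Akr1c6, a hydroxysteroid dehydrogenase, differed by -1.06 ± 0.16 and Amacr, a racemase of side-chain shortening, by -0.57 ± 0.17. For Amacr only the brighter of 2 probes is given. For STZ against control 0 of the 6 stood at that threshold in either direction.

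Slc10a1 is the sodium-dependent importer of bile salts from blood, and only the brighter of its 2 probes is given. By that probe Slc10a1 ran opposite to Abcb11 between STZ+MENS and STZ. It had 14.21 and 13.43 in STZ+MENS, 12.23 and 12.09 in STZ, and 12.40 and 12.94 in control, and exceeded STZ by 1.67 ± 0.30 (adjusted p = 0.0595). Slco1a4, an organic anion importer, had 14.47 and 15.39 in STZ+MENS, 15.98 and 15.71 in STZ, and 14.01 and 13.93 in control, and exceeded control by 1.88 ± 0.30 in STZ (adjusted p = 0.101). Slc51b, a subunit of the bile salt exporter of the blood side, had 14.38 and 13.97 in STZ+MENS, 13.65 and 13.33 in STZ, and 14.27 and 14.55 in control (-0.92 ± 0.21 for STZ minus control, adjusted p = 0.143). Of the 9 measured uptake and flippase genes, 2 were higher and 1 lower for STZ against control at an unadjusted p under 0.05 (8.48% and 8.49% of all genes), and 2 higher and 2 lower for STZ+MENS against STZ (12.6% and 12.8% of all genes).

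The bile acid receptor gene Nr1h4 had 17.13 and 16.82 in STZ+MENS, 16.20 and 16.24 in STZ, and 16.63 and 16.73 in control. It exceeded STZ by 0.75 ± 0.16 in STZ+MENS (adjusted p = 0.07). Nr0b2, a repressor that is a target of this receptor, had 13.98 and 13.87 in STZ+MENS, 13.38 and 13.28 in STZ, and 13.58 and 13.93 in control (0.59 ± 0.17, adjusted p = 0.106). Only the brighter of the 2 Nr0b2 probes is given. Of the 7 bile acid sensing genes, 3 were higher and 0 lower for STZ+MENS against STZ at an unadjusted p under 0.05 (12.6% and 12.8% of all genes), and 0 higher and 3 lower for STZ against control (8.48% and 8.49%). The STZ samples are shared by these 2 comparisons.

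Among 11 measured genes of sterol sensing and HDL, Nr1h3, the liver X receptor alpha, had 14.68 and 14.47 in STZ+MENS, 15.09 and 14.57 in STZ, and 14.81 and 14.98 in control, and STZ+MENS minus control was -0.32 ± 0.21. Pltp, the phospholipid transfer protein, had 14.12 and 11.92 in STZ+MENS, 10.89 and 10.43 in STZ, and 13.87 and 13.17 in control (-2.86 ± 0.68 for STZ minus control, adjusted p = 0.15). It was the 1 gene of the 11 that was lower in STZ than in control at an unadjusted p under 0.05, where 8.49% of all genes were lower, and 0 were higher. Soat2, which esterifies cholesterol, had 14.10 and 13.79 in STZ+MENS, 13.18 and 13.10 in STZ, and 13.16 and 13.24 in control (0.81 ± 0.16 for STZ+MENS minus STZ, adjusted p = 0.0663).

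Of 9 measured genes of xenobiotic sensing and response, 5 were higher and 0 lower for STZ against control at an unadjusted p under 0.05, where 8.48% of all genes were higher. For STZ+MENS against STZ, 1 was higher and 4 were lower, where 12.6% and 12.8% of all genes were. Nr1i2, the pregnane X receptor, had 12.26 and 12.75 in STZ+MENS, 12.63 and 12.83 in STZ, and 12.22 and 12.13 in control (0.55 ± 0.20 for STZ minus control, adjusted p = 0.249). Nr1i3, the constitutive androstane receptor, had 15.84 and 16.06 in STZ+MENS, 14.81 and 15.43 in STZ, and 14.92 and 14.70 in control, and exceeded control by 1.14 ± 0.24 in STZ+MENS (adjusted p = 0.125). Nfe2l2, the transcription factor NRF2 of the oxidative stress response, had 13.33 and 13.32 in STZ+MENS, 14.13 and 14.22 in STZ, and 12.94 and 12.97 in control. STZ exceeded control by 1.22 ± 0.13 (adjusted p = 0.0654), and STZ+MENS minus STZ was -0.85 ± 0.13 (adjusted p = 0.0595). Gclc, the limiting enzyme of glutathione synthesis, had 13.48 and 14.41 in STZ+MENS, 14.72 and 15.42 in STZ, and 13.80 and 13.59 in control (1.38 ± 0.36 for STZ minus control, adjusted p = 0.163). No value here ties these regulators to a change of an ABC gene.

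Markers of other liver cells were measured on the same arrays, and their part in the values above was not tested. Bile duct cell markers, 8 of 9 measured, had a summed intensity of 18185 to 23515 in STZ+MENS, 20852 to 26347 in STZ and 16742 to 17442 in control, of which Spp1 made up the most. All 8 had a higher mean in STZ than in control, as did 8439 of all 17742 genes. Of the 8, 3 were higher at an unadjusted p under 0.05, where 8.48% of all genes were. These were Anxa13 (3.22-fold), Tspan8 (2.77-fold) and Krt19 (2.37-fold). A lower mean in STZ+MENS than in STZ was found for 7 markers and for 7730 of all 17742 genes. Abcc4 and Abcb1a were likewise highest in STZ, and the part of bile duct cells in their values was not tested. For macrophage markers, 8 of 8, the summed intensity was 39228 to 62768 in STZ+MENS, 36263 to 36426 in STZ and 35039 to 41751 in control. Endothelial markers, 6 of 7, spanned 62341 to 78920, 53650 to 60702 and 62173 to 72301 in the same order of groups, and stellate cell markers, 7 of 7, spanned 140490 to 205708, 160814 to 164129 and 148503 to 184214. Markers of lymphoid cells and neutrophils, 6 of 6, lay between 5155 and 6897 in all groups. No marker was at or below 0 in any sample.

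The 7 motifs were searched on both strands of the RefSeq windows of 36 of the 46 ABC genes, 1 window per gene. AGGTCA, the core of nuclear receptor sites, was in 5 of the 36 (13.9%) and in 16% of all 27025 windows. A pair of AGGTCA in the same direction spaced by 4 bases, and a pair in facing directions spaced by 1 base, were in 0 of the 36 and in 3 windows each of all. TGACNNNGC, the core of antioxidant response elements, was in 5 (13.9%), against 12.4% of all, namely Abca8b, Abcb1a, Abcc10, Abcc2 and Abcc4. CACGTG was in 6 (16.7%), against 7.24%, CCAAT in 11 (30.6%), against 38%, and GGGCGG in 17 (47.2%), against 35.9%. A match is only a string of letters and does not show that a factor binds there.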

How the data were processed

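Total RNA of 6 mouse liver samples was labelled with Cy5 and hybridised to 12 arrays, per the labels' protocols. The authors deposited a linear intensity for each of 26423 probes, already normalized: array medians lay between 768.89 and 770.33, sorted values were nearly equal across arrays, and 44 to 52 probes per array were negative. How this was done is not stated, though limma 3.30.7 appears, with no role, per the submitters' processing notes. From the deposited intensities, negative ones were raised to 0, 50 was added and log2 taken, which understates differences of dim probes.

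The platform annotation named 20377 probes and left 6046 without a symbol. RefSeq (GRCm38.p6) gave 18213 of the names as current and 2126 through a synonym, while 38 kept the old one. All 46 ABC genes matched. Arrays of a sample were averaged, and limma 3.58.1 in R 4.3.3 fitted 1 mean per group (3 residual and 3.2 prior degrees of freedom, two-sided tests). Single genes got no exact permutation test, whose smallest p with these groups is 0.33. The fit was tested on simulated data. Figures used matplotlib 3.10.9 in Python 3.11.15. Separate animals are not stated, so p reflects the spread between samples, which may be technical.

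The ABC genes, the pathway and marker lists and the naming rule were chosen with earlier results of these data known. By the rule, 14 exporters were described whatever their result, with up to 8 genes per comparison of smallest p without overlap, the gene of smallest p in each role, fixed receptors and importers of the pathway lists (Cyp7a1 is not analysed here) and up to 3 of smallest p per list. Promoters, motifs and probes shown were chosen after values were seen. Alternatives were offsets of 16 and 200, all probes averaged, only the groups compared, each sample left out, the sample number as a block, first or second arrays only, 12 arrays with the sample as a random block, a mean intensity of at least 100, renewed quantile normalization and a trended robust prior.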

Additional observations from a re-analysis of the deposited data

How the results depend on the processing

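The limma fit described had 2 samples per group and 3 residual degrees of freedom. Its counts of ABC genes past an adjusted p of 0.05 were all 0, and some other settings gave other counts. For STZ against control the count was 1 (Abcc4) with only the 2 groups compared, where 1.02% of all genes passed. It was 4 (Abca1, Abcb1a, Abcb4 and Abcc4) with all 12 arrays and the sample as a random block, where 6.79% of all genes passed. That fit takes its degrees of freedom from the arrays. The 2 arrays of a sample thus count in part as replicates, and the counts of this fit overstate the replication. For STZ+MENS against STZ, leaving out single samples gave 0 to 5, the 5 (Abca6, Abcb11, Abcb1a, Abcc4 and Abce1) without STZ+MENS sample 2, where 9.91% of all genes passed, and the random block gave 8, where 17.4% of all genes passed. For STZ+MENS against control the random block gave 4 (Abcb4, Abcc10, Abcd2 and Abce1), where 7.53% of all genes passed, and leaving out single samples gave 0. The cause was not tested.

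At an unadjusted p under 0.05, leaving out single samples gave 7 to 12 genes for STZ against control, 8 to 18 for STZ+MENS against STZ and 7 to 15 for STZ+MENS against control, while the share of all genes lay between 10.2% and 19.8%, 13.5% and 29.1%, and 10.2% and 21%. With the sample number as a replicate block the unadjusted counts were 11, 11 and 10, where 15.4%, 22.7% and 16.2% of all genes stood at that threshold, and the adjusted counts stayed at 0. Deviations of same-numbered samples from their group means correlated at 0.005, -0.070 and -0.031 across genes. This shows no shared shift, but cannot tell whether samples were paired or processed together. For the 37 differences of single genes at an unadjusted p under 0.05, 0 turned direction under the alternatives. Several alternatives, such as the random block, the trended prior and the intensity filter, leave the difference itself unchanged, so its direction could not turn there. Averaging all probes likewise changes nothing for the 41 genes with 1 probe. Kept direction is therefore no measure of how stable the differences are. Differences of probes near the offset are limited by their low signal.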
